A study of Mus musculus with 140 samples.

Results

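The genes described are 10 that encode subunits or close partners of the Polycomb repressive complexes: Ezh2, Ezh1, Eed, Suz12 and Jarid2 of complex PRC2, and Rnf2, Ring1, Bmi1, Cbx7 and Phc1 of complex PRC1. They were followed through every probe set of the MOE430A and MOE430B arrays whose annotation names 1 of these genes and no other, which gave 28 of 45265 probe sets, 25 on the A array and 3 on the B array. Of the 28, 20 passed a filter on low signal (above the table median on at least 3 of the 70 arrays of a design). The other 8 were dim probe sets of Ezh1, Eed, Suz12, Rnf2 and Cbx7, genes that each had at least 1 probe set that passed. Below, a gene is represented by its brightest probe set (by mean rank among all probe sets of an array), and its other probe sets are given by their IDs. The samples are CCE mouse embryonic stem cells, a male line of 129/Sv origin, taken daily in 9 courses of 1 sample per day. In 7 courses the cells carried a short hairpin RNA (shRNA) against Esrrb, Nanog, Oct4 (the product of Pou5f1), Sox2, Tbx3, Tcl1 or Mm343880. In a further course the cells received 5 µM retinoic acid without LIF, the cytokine that keeps these cells undifferentiated, and the labels name no vector for it. The empty H1P vector course was the control. The cells with a vector grew with 1000 units/ml of LIF, and those positive for GFP were sorted daily. Day 0 was 48 hours past the transduction. Most courses ran for 8 days (0 to 7), but those of Mm343880 and of retinoic acid for 7 (0 to 6). No transduction was repeated, so the p-values describe the scatter of daily samples around a smooth curve in each course, part of which may be technical, and the number of arrays limits the precision. The retinoic acid course differs from the control in the drug, in LIF and possibly in the vector, which cannot be told apart.

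Polycomb complexes keep genes silent through histone marks. PRC2 methylates a lysine of histone H3 through the enzymes Ezh2 or Ezh1, which work only together with Eed and Suz12, and Jarid2 helps to bring the complex to its targets in embryonic stem cells. PRC1 attaches ubiquitin to histone H2A through the ring finger proteins Rnf2 or Ring1, paired with a PCGF protein such as Bmi1, and its canonical forms add a chromodomain protein such as Cbx7, which binds the PRC2 mark, and a polyhomeotic protein such as Phc1, which compacts chromatin. In embryonic stem cells these complexes hold many developmental regulator genes in check, and Cbx7 is known as the main chromodomain subunit of that state.

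The promoters of the genes whose signals moved most, Phc1 and Bmi1, and of the 2 genes that hold an E2F motif, Ezh2 and Suz12, are shown from RefSeq on build GRCm38.p6, from 250 bases before to 50 bases after the start of the gene. The Phc1 window lies at chr6:122340178-122340477 on the minus strand, the Bmi1 window at chr2:18676768-18677067 on the plus strand, the Ezh2 window at chr6:47594981-47595280 on the minus strand and the Suz12 window at chr11:79992856-79993155 on the plus strand. Capitals mark the E2F motif.
Phc1 promoter: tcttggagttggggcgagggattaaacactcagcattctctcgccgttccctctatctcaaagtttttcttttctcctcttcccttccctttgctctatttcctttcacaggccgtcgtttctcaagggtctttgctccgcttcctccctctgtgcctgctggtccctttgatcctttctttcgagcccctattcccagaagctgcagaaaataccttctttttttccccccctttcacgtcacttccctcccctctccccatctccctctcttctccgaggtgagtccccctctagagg
Bmi1 promoter: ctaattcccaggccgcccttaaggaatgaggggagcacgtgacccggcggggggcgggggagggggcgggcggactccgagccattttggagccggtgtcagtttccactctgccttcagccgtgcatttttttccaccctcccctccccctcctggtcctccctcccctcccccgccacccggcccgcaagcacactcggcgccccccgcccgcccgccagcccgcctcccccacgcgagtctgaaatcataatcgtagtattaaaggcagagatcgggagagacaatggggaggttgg
Ezh2 promoter: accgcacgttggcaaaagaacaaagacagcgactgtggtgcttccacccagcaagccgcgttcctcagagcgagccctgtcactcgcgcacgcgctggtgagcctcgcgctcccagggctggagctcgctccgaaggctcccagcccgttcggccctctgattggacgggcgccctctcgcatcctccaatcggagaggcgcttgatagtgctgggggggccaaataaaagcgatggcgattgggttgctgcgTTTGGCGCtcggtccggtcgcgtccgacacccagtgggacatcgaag
Suz12 promoter: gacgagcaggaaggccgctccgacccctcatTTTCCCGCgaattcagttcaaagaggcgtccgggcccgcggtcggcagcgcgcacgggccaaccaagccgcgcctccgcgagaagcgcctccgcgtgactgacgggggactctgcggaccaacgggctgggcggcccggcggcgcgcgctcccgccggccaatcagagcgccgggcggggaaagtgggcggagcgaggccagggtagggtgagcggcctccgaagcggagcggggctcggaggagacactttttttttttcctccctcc
All 10 genes matched the promoter table, Jarid2 with 2 starts, which made 11 windows. The E2F motif was searched on both strands as TTTCCCGC, TTTCGCGC, TTTGCCGC or TTTGGCGC. It was in 2 of the 11 windows, in Ezh2 at 3 and in Suz12 at -219 bases from the start, against 2.26% of all 32851 promoter windows of that length. The octamer ATGCAAAT, known from Oct4 sites, was in 0 of 11 windows against 1.74% of all, and TCAAGGTCA, known from Esrrb sites, in 0 of 11 against 0.423%. With 11 windows these shares are a description of the letters and say nothing of binding. The windows ran from 52.0% G and C in Phc1, which held 9 CpG, to 74.0% in Ring1, which held 37, beside a median of 52.7% over all promoters.

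In 6 knockdown courses the signal of the targeted gene was below that of the empty vector on 8 of 8 days. Pou5f1 ran from 1547 to 5228 under Oct4 shRNA, against 14626 to 17590 in the empty vector. Nanog ran from 877 to 1644 under its shRNA, against 6577 to 8314 in the control. The transcript that the Mm343880 hairpin targets was not analysed here. Of 8 markers of undifferentiated cells, 8 fell under Oct4 shRNA, 8 under Sox2 shRNA, 7 under Nanog shRNA, 4 under Mm343880 shRNA, 3 under Esrrb shRNA, 2 under Tcl1 shRNA, 1 under Tbx3 shRNA and 8 with retinoic acid. Pou5f1, Sox2, Nanog and Esrrb are among the 8, so in the courses of these 4 hairpins 1 of the markers that fell was the target itself. In bulk samples fewer cells of a type and less RNA per cell cannot be told apart. The summed signal of 7 fibroblast markers on the A array ran from 1461 to 22707 over the retinoic acid days, against 1097 to 1975 in the empty vector. Its highest value also exceeded the control range under Tbx3 (to 5451), Sox2 (to 3868), Esrrb (to 3677), Tcl1 (to 2121) and Mm343880 shRNA (to 2047), but not under Nanog (to 1920) or Oct4 shRNA (to 1630). Of the 7 markers tested, 5 rose and 1 fell with retinoic acid, 3 rose and 1 fell under Sox2 and under Esrrb shRNA, and 2 rose and 1 fell under Tbx3 shRNA. Under Nanog and under Oct4 shRNA 0 rose and 1 fell, under Tcl1 shRNA 1 and 0, and under Mm343880 shRNA 0 and 0. Of all genes 26.4% rose and 22.3% fell with retinoic acid. In the knockdown courses 4.38% (Tcl1) to 10.5% (Sox2) of all genes rose and 3.33% (Tcl1) to 10.7% (Sox2) fell. None of the fibroblast markers was at 0, and the collagen gene Col1a2 ran from 584 to 9960 against 352 to 471. Thy1 fell in 5 of 7 knockdown courses. The median array signal was also higher in the retinoic acid course, 342 ± 40.1 (SD, n = 7) on the A array against 282 ± 28.8 (SD, n = 8). The part of these differences in the results below was not tested.

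The late values of each course, the average of its fitted curve over days 4 to 6, were set against those of the empty vector. Differences are of log2(signal + pseudocount), with a pseudocount of 63.1 on the A array and 21.8 on the B array, so that folds of dim genes are understated. A gene rose or fell where the p-value, adjusted by Benjamini and Hochberg over all 32992 probe sets used, was under 0.05. Under Nanog shRNA 2 of the 10 genes rose (Suz12 and Bmi1) and 1 fell (Phc1), where 10.4% and 9.04% of 14689 genes rose and fell. Under Oct4 shRNA 0 rose and 2 fell (Phc1 and Eed), against 5.71% and 9.39% of all genes. Under Sox2 shRNA 1 rose (Bmi1) and 1 fell (Phc1), against 10.5% and 10.7%. Under Esrrb shRNA 0 rose and 1 fell (Jarid2), against 6.50% and 4.46%. Under Tbx3 shRNA limma called 0 of 10, where 5.13% of all genes rose and 4.72% fell, and 1 gene had an unadjusted p under 0.05. Under Tcl1 shRNA it called 0 of 10, against 4.38% and 3.33%, and 2 genes had an unadjusted p under 0.05. Under Mm343880 shRNA 2 rose (Suz12 and Jarid2) and 0 fell, against 6.86% and 6.39%. With retinoic acid 4 rose (Bmi1, Rnf2, Suz12 and Ezh2) and 3 fell (Phc1, Ezh1 and Cbx7), against 26.4% and 22.3%. These are differences from the empty vector, and over the days of the retinoic acid course only Bmi1 of these 4 rose, as given below. Most of these counts lie near the share of all genes, and no shift of the 10 genes as a set is read from them. The median log2 difference of the 10 genes with retinoic acid was 0.33, beside 0.05 over all genes, and in the 7 knockdown courses it ran from -0.25 (Oct4, all genes -0.10) to 0.16 (Tbx3, all genes -0.06). These comparisons all share the empty vector samples. So do the statements below on days or samples above or below the empty vector, and how many of all genes show the same was not counted.

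**Figure D1:**
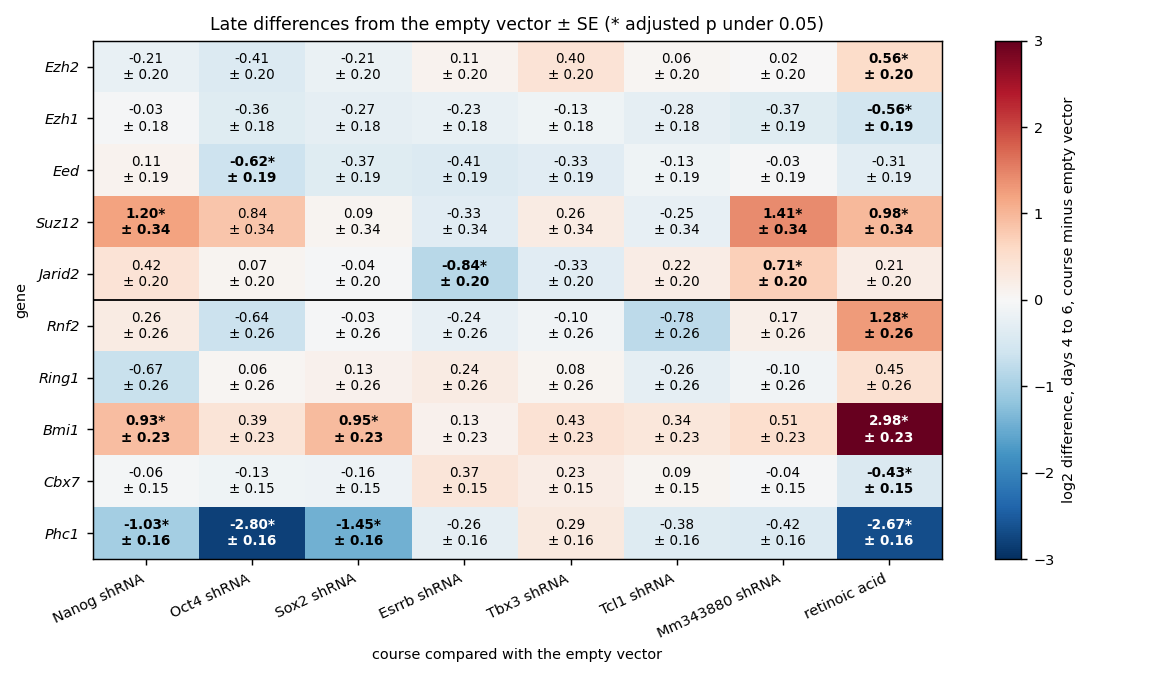
Log2 difference of each gene on days 4 to 6 (rows, PRC2 genes above the line and PRC1 genes below it) in each course against the empty vector (columns), with its SE and an asterisk where the adjusted p was under 0.05. Phc1 is low in the Nanog, Oct4, Sox2 and retinoic acid columns, and Bmi1 with retinoic acid has the highest value, 2.98.

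Ezh2, the catalytic subunit of PRC2 in dividing cells, was called with retinoic acid and in no knockdown course. Its signals on days 0 to 6 with retinoic acid were 2765, 3048, 3813, 2556, 2884, 2582 and 2596. In the empty vector course, on days 0 to 7, they were 3799, 1640.2, 1339, 1362, 1721, 1880.5, 1530.3 and 1767. After day 0 every retinoic acid sample was above every empty vector sample, while on day 0 the empty vector was higher and near the highest retinoic acid value. The late difference was 0.56 ± 0.20 on the log2 scale (SE, adjusted p = 0.02), or 1.47-fold, and higher on 3 of 3 late days. It no longer passed when any single retinoic acid sample of days 4, 5 or 6 was left out, at 0.51 (adjusted p = 0.0629), 0.54 (adjusted p = 0.0779) and 0.68 (adjusted p = 0.249) in that order. It also did not pass without empty vector day 5, at 0.56 (adjusted p = 0.0616), or day 6, at 0.47 (adjusted p = 0.0787). In the knockdown courses the differences ran from -0.41 ± 0.20 under Oct4 shRNA (adjusted p = 0.212) to 0.40 ± 0.20 under Tbx3 shRNA (adjusted p = 0.239). The 95% intervals of these values were -0.81 to -0.01 and 0.00 to 0.80.

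Ezh1, the alternative H3 methyltransferase of PRC2, fell with retinoic acid. Its signals on days 4 to 6 were 308, 248 and 380.2 with retinoic acid, against 609.6, 401 and 508 in the empty vector, and it was lower on 7 of 7 days. The difference was -0.56 ± 0.19 (adjusted p = 0.0124), and -0.74 ± 0.24 (adjusted p = 0.0114) on the probe set 1449023_a_at. Another, 1429630_at on the B array, went the other way without passing (0.65 ± 0.46, adjusted p = 0.276), and its signal was at most 185.2 on any array. The call was lost without empty vector day 4, the highest day of that course, at -0.40 (adjusted p = 0.109), and without retinoic acid day 5 at -0.47 (adjusted p = 0.0925) or day 6 at -0.77 (adjusted p = 0.141). Under Mm343880 shRNA the probe set 1449023_a_at was lower by its own test (-0.82 ± 0.24, adjusted p = 0.0222), whereas the one that stands for the gene had -0.37 ± 0.19 (adjusted p = 0.215). In the other 6 knockdown courses no Ezh1 probe set passed.

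Eed, the subunit that reads the methyl mark and stimulates the enzyme, fell under Oct4 shRNA. Signals there were 3100.4, 1861, 1741, 1411, 1537, 1911, 1884 and 1795 on days 0 to 7. The empty vector samples had 4934, 3048, 2782, 2599, 2127, 3216, 2854 and 2932. The Oct4 samples were lower on 8 of 8 days, and from day 1 on all of them lay below all empty vector samples. The late difference was -0.62 ± 0.19 (adjusted p = 0.0199), 1.54-fold lower. It did not pass without empty vector day 5, at -0.49 (adjusted p = 0.196), nor without Oct4 day 4 or day 5, at -0.59 (adjusted p = 0.0689) and -0.67 (adjusted p = 0.054). With days 4 to 6 compared by means and the day as a replicate block it was -0.59 (adjusted p = 0.126). Eed also lay below the control on 8 of 8 days under Esrrb shRNA (-0.41 ± 0.19, adjusted p = 0.205) and under Tbx3 shRNA (-0.33 ± 0.19, adjusted p = 0.323), without passing. Under Sox2 shRNA it was lower on 7 of 8 days, with -0.37 ± 0.19 (adjusted p = 0.202). The exception was Sox2 day 6, at 3771, and without that sample the difference was -0.62 (adjusted p = 0.00961).

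Suz12, the zinc finger subunit that holds PRC2 together, was higher in 3 courses and uneven over days. Its signals under Nanog shRNA on days 0 to 7 were 3230.5, 1211, 595, 1363, 1149, 3561, 2789 and 3481. Under Mm343880 shRNA on days 0 to 6 they were 1841, 958, 1022, 4537, 2506, 3717 and 1807, with retinoic acid 2077, 2862, 3049.8, 2045, 1603, 2362 and 2521, and in the empty vector on days 0 to 7 2687, 730.3, 867, 668, 952, 1044, 1042 and 1586. All late samples of these courses were above all late samples of the empty vector, which ran from 952 to 1044. The late difference was 1.20 ± 0.34 under Nanog shRNA (adjusted p = 0.0111), 1.41 ± 0.34 under Mm343880 shRNA (adjusted p = 0.00422) and 0.98 ± 0.34 with retinoic acid (adjusted p = 0.0183). Both other probe sets that were used also passed under Nanog shRNA (1.13 ± 0.33 and 1.05 ± 0.37) and with retinoic acid (1.52 ± 0.33 and 1.03 ± 0.37). Neither passed under Mm343880 shRNA (0.72 ± 0.33, adjusted p = 0.164, and 0.74 ± 0.37, adjusted p = 0.213). Under Oct4 shRNA Suz12 was higher on 7 of 8 days, with 0.84 ± 0.34 (adjusted p = 0.118).

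The Suz12 calls rested on single samples. Without Nanog day 5, a sample that lay far from its curve over all genes, the Nanog difference was 0.95 (adjusted p = 0.139), and without empty vector day 5 it was 1.17 (adjusted p = 0.0564). Without Mm343880 day 6 that course gave 1.15 (adjusted p = 0.443). Without retinoic acid day 5 or day 6 the difference there was 0.75 (adjusted p = 0.16) or 1.62 (adjusted p = 0.0844), and without empty vector day 5 or day 6 it was 0.94 (adjusted p = 0.0701) or 0.87 (adjusted p = 0.0565). With the day as a replicate block the 3 differences were 1.11 (adjusted p = 0.092), 1.29 (adjusted p = 0.0681) and 1.02 (adjusted p = 0.0518). Probe sets whose names end in _s_at may bind more than 1 transcript.

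Jarid2, a recruiting partner of PRC2 in embryonic stem cells, fell under Esrrb shRNA. Signals there on days 0 to 7 were 3105, 4499, 1707, 1728, 1586, 1855, 1441 and 1312. The empty vector samples had 6390.1, 3522, 3458, 2359.9, 3112, 3158, 2424 and 3640. The Esrrb samples were lower on 7 of 8 days, all but day 1, and from day 2 on all of them lay below all empty vector samples. The late difference was -0.84 ± 0.20 (adjusted p = 0.00365), 1.79-fold lower. All 3 probe sets fell, the others by 0.90 ± 0.16 (adjusted p = 5.35e-05) and 0.54 ± 0.15 (adjusted p = 0.0179). No single sample ended the call. Leaving day 4 or day 5 out of every course did, at -0.71 (adjusted p = 0.0865) and -0.90 (adjusted p = 0.0562), and the day as a replicate block gave -0.81 (adjusted p = 0.0666).

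Under Mm343880 shRNA Jarid2 was higher on the probe set that stands for the gene, with 4866, 5245 and 3852 on days 4 to 6, against 3112, 3158 and 2424 in the empty vector. The difference was 0.71 ± 0.20 (adjusted p = 0.0146), but the other probe sets had -0.04 ± 0.16 and -0.11 ± 0.15 and did not pass (adjusted p = 0.918 and 0.722). The call was lost without Mm343880 day 5 or day 6, at 0.72 (adjusted p = 0.0629) and 0.60 (adjusted p = 0.504), without empty vector day 6, at 0.58 (adjusted p = 0.0777), and without day 6 of every course, at 0.47 (adjusted p = 0.618). With the day as a replicate block it was 0.67 (adjusted p = 0.128).

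Rnf2, also called Ring1B and the main H2A ubiquitin ligase of PRC1 in these cells, rose with retinoic acid. Its signals on days 0 to 6 were 2209, 2371, 3011, 3267, 3071, 3088 and 3204. Those of the empty vector on days 0 to 7 were 2408, 1206, 1209, 1113, 1212, 1185, 1334 and 1423. From day 2 on every retinoic acid sample was above every empty vector sample. The late difference was 1.28 ± 0.26 (adjusted p = 5.73e-05), 2.43-fold and higher on 6 of 7 days. The probe set 1451519_at rose by 1.38 ± 0.24 (adjusted p = 4.88e-06), and 1448042_s_at had 0.45 ± 0.33 (adjusted p = 0.298). Without retinoic acid day 6 the call was lost, at 1.24 (adjusted p = 0.0838). Under Tcl1 shRNA Rnf2 was lower on 8 of 8 days and short of the threshold, with -0.78 ± 0.26 (adjusted p = 0.058). It passed there after quantile normalization (-0.82, adjusted p = 0.034), with 1 probe set per gene (-0.78, adjusted p = 0.0474) and without Tcl1 day 5 (-1.08, adjusted p = 0.0342). It was also lower on 8 of 8 days under Oct4 shRNA (-0.64 ± 0.26, adjusted p = 0.111) and under Esrrb shRNA (-0.24 ± 0.26, adjusted p = 0.684), and did not pass.

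Ring1, the other ligase (also called Ring1A), was called in no course. Its signals ran from 378 to 699.6 with retinoic acid and from 328 to 515 in the empty vector, with a difference of 0.45 ± 0.26 (adjusted p = 0.174, 95% interval -0.08 to 0.98). Under Nanog shRNA the signals on days 0 to 7 were 378, 466, 184, 366, 310.5, 70.5, 428 and 395. Day 5, at 70.5, was the lowest of the 70 samples, and the late difference was -0.67 ± 0.26 (adjusted p = 0.0789). It passed after quantile normalization (-0.80, adjusted p = 0.0268) and without Nanog day 2, day 4 or day 6, at -0.73 (adjusted p = 0.0311), -0.91 (adjusted p = 0.0191) and -0.88 (adjusted p = 0.0232). Without Nanog day 5 the difference was -0.00 (adjusted p = 0.996).

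Bmi1, the PCGF subunit first known as an oncogene partner of Myc and a repressor of the Cdkn2a locus, showed the largest rise of the 10 genes. With retinoic acid its signals on days 0 to 6 were 216, 688, 1082, 1247, 1222, 1337 and 1272. In the empty vector on days 0 to 7 they were 237, 204, 119, 114, 90.4, 116, 98.5 and 187. On day 0 the retinoic acid sample was within the range of the empty vector, and from day 1 on all retinoic acid samples lay above it. The late difference was 2.98 ± 0.23 (adjusted p = 1.17e-14), 7.91-fold, and 2.78 ± 0.28 (adjusted p = 2.41e-11) on the other probe set. That probe set, 1448733_at, was dim, with a mean rank at percentile 12.4 of its arrays and signals from 2.1 to 536.5. In the empty vector the representing probe set was below the filter's cut of 283.3 on every day. Both passed the filter through samples in which they were high, so their rise is not independent of it. The difference of the representing probe set passed in all 23 fits that left out samples, between 2.88 and 3.29. It also passed in the 8 other settings, among them that without the filter, between 2.84 and 3.58. Bmi1 also rose under Nanog shRNA, with 188, 265 and 311 on days 4 to 6, against 90.4, 116 and 98.5 in the empty vector (0.93 ± 0.23, adjusted p = 0.00284). Under Sox2 shRNA it was 172, 251 and 434 on these days (0.95 ± 0.23, adjusted p = 0.00193). The other probe set passed in neither course (0.13 ± 0.28 and 0.45 ± 0.28). The Sox2 call was lost without day 6 of every course, at 0.69 (adjusted p = 0.0808). The empty vector signals of Bmi1 on days 4 to 6 were lower than on its days 0 and 1, at 101 against 220.4. Under Mm343880 shRNA the difference was 0.51 ± 0.23 (adjusted p = 0.152), and without day 4 of that course, a sample far from its curve, 0.87 (adjusted p = 0.005).

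Cbx7, the chromodomain subunit of canonical PRC1 in undifferentiated cells, was called in no knockdown course. With retinoic acid its signals on days 0 to 6 were 2252, 2016, 3049, 2094, 1438, 1418 and 1799.7. The empty vector had 2859, 1863, 1972, 1968, 1880.3, 2162, 2226 and 2108 on days 0 to 7. The retinoic acid samples of days 4 to 6 lay below all empty vector samples. The difference was -0.43 ± 0.15 (adjusted p = 0.0151), but -0.25 (adjusted p = 0.184) with a stiffer curve of 2 degrees of freedom and -0.78 after quantile normalization. It was lost without retinoic acid day 4 (-0.40, adjusted p = 0.0517) or day 6 (-0.37, adjusted p = 0.433), without empty vector day 5 (-0.43, adjusted p = 0.0531), and the A array probe set 1449713_at had -0.19 ± 0.23 (adjusted p = 0.564). In the knockdown courses the values ran from -0.16 ± 0.15 under Sox2 shRNA to 0.37 ± 0.15 under Esrrb shRNA (adjusted p = 0.124), where Cbx7 was higher on 7 of 8 days and passed with 2 degrees of freedom (0.54, adjusted p = 0.00502). Under Esrrb shRNA 1449713_at went the other way (-0.52 ± 0.23, adjusted p = 0.181) and was lower on 6 of 8 days. The signs of both probe sets also differed under Tbx3 (-0.56 against 0.23), Tcl1 (-0.36 against 0.09) and Nanog shRNA (0.08 against -0.06). Under Oct4, Sox2 and Mm343880 shRNA both were negative.

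Phc1, the polyhomeotic subunit of canonical PRC1, fell in 4 courses. Under Nanog shRNA its signals on days 0 to 7 were 11518, 12342, 9939.5, 7629, 8062, 3903, 2552 and 2987. Under Oct4 shRNA they were 2843, 2001, 1388, 851, 1231, 1126, 1439.5 and 2138, and under Sox2 shRNA 8355, 6098, 4128, 3398, 2848, 2738, 4445 and 4857. With retinoic acid they were 8454, 2714, 2039.6, 1493, 1547, 1342 and 1146 on days 0 to 6, and in the empty vector 9877, 9271, 8764, 9072, 8875, 8296, 9618 and 8986 on days 0 to 7. The empty vector samples varied little. The Oct4 course was low from day 0 on, all of its samples below all of the empty vector, while the Nanog course began above the empty vector and was below it from day 3 on. The retinoic acid course lay below the empty vector on 7 of 7 days and the Sox2 course on 8 of 8.

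On days 4 to 6 Phc1 averaged 1266 ± 159.6 under Oct4 shRNA (SD, n = 3 days), 1345 ± 201 with retinoic acid, 4839 ± 2872 under Nanog shRNA and 3344 ± 955 under Sox2 shRNA, against 8929.6 ± 663 in the empty vector. The differences were -2.80 ± 0.16 under Oct4 shRNA (adjusted p = 9.96e-18), 6.96-fold lower, -2.67 ± 0.16 with retinoic acid (adjusted p = 3.54e-18), 6.36-fold lower, -1.45 ± 0.16 under Sox2 shRNA (adjusted p = 1.49e-09) and -1.03 ± 0.16 under Nanog shRNA (adjusted p = 3.7e-06). The call held in every fit that left out a sample or a day and in the 8 other settings, where the value ran from -2.92 to -2.71 for Oct4, -2.89 to -2.59 for retinoic acid, -1.54 to -1.35 for Sox2 and -1.23 to -0.87 for Nanog.

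In the other courses Phc1 stayed nearer the empty vector. Its lowest, median and highest signals were 6099, 10571 and 16794 under Esrrb shRNA, 8452, 12753 and 13736 under Tbx3 shRNA, 6323, 7154 and 10949 under Tcl1 shRNA and 6024, 7708 and 8879 under Mm343880 shRNA. In the empty vector they were 8296, 9029 and 9877. The late differences were -0.26 ± 0.16, 0.29 ± 0.16, -0.38 ± 0.16 and -0.42 ± 0.16 in that order, and none passed (adjusted p of 0.384, 0.293, 0.15 and 0.0774). That of Mm343880 passed after quantile normalization (-0.47, adjusted p = 0.0449) and without day 4 of its course (-0.50, adjusted p = 0.0439). Under Nanog shRNA the signal was below the control on 5 of 8 days, the last 5, and under Oct4 shRNA on 8 of 8, with the lowest value on day 3. Of the 8 markers of undifferentiated cells, 7 (Nanog shRNA) or 8 (the others) fell in the 4 courses in which Phc1 fell, and their part in the fall of Phc1 was not tested.

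**Figure D2:**
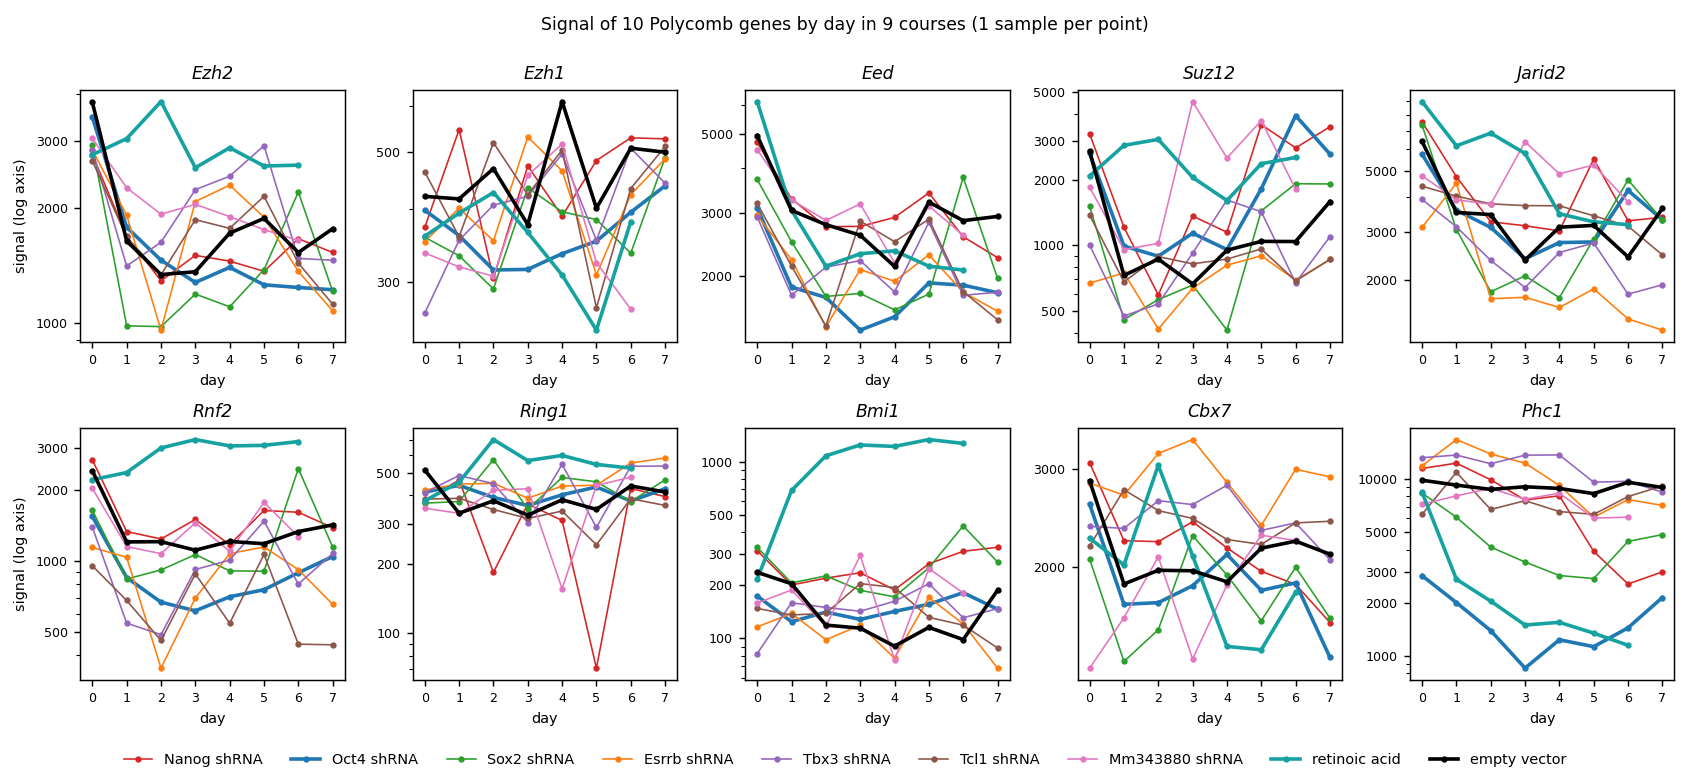
Signal on a log axis (y) by day (x) for each gene, 1 panel per gene and 1 line per course, with 1 sample per point and the empty vector in black. Bmi1 with retinoic acid leaves the other courses after day 0, Phc1 under Oct4 shRNA starts at 2843, and Ring1 under Nanog shRNA dips to 70.5 on day 5.

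The probe sets of Suz12, Jarid2 and Bmi1 moved alike, and those of Rnf2 and Ezh1 less so. Probe sets on different array designs, as those of Cbx7, were not correlated. Over the 70 samples the log2 signals of the A array probe sets of Suz12 correlated with Pearson's r of 0.86 to 0.93, those of Jarid2 with 0.79 to 0.90 and both of Bmi1 with 0.90. The Rnf2 probe sets correlated with 0.41 to 0.94, and both A array probe sets of Ezh1 with 0.45. These points share arrays and courses, so the values are descriptions. Ezh2, Ring1 and Phc1 had 1 probe set each, so that their values rest on a single measurement per sample. Eed had 1 that passed the filter.

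**Figure D3:**
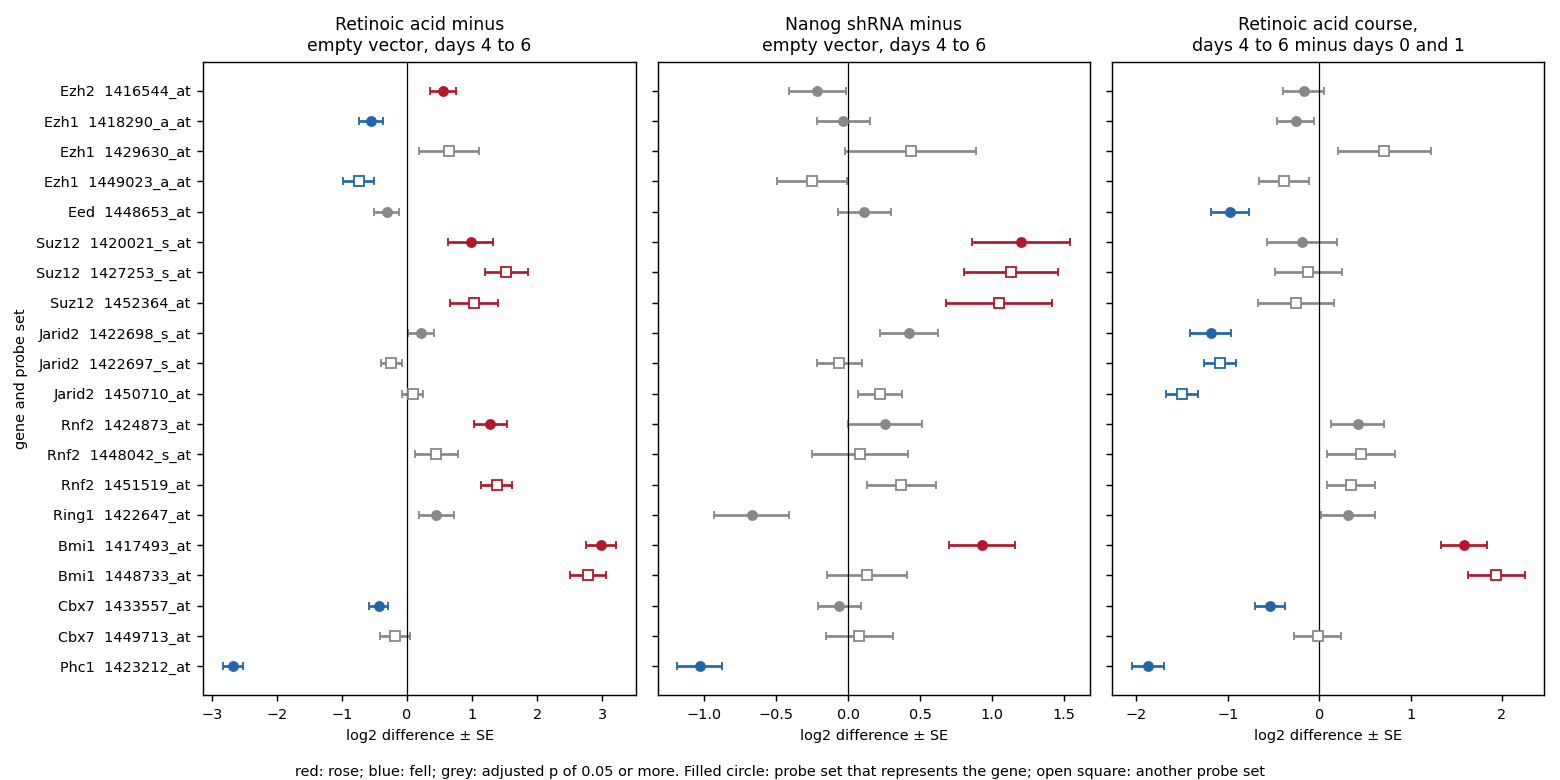
Log2 difference with its SE (x) of each probe set that passed the filter (y), for retinoic acid and Nanog shRNA against the empty vector and for the retinoic acid course over time. All 3 Suz12 probe sets rose in the first and second panels, and 1448733_at of Bmi1 lies at 0.13 in the second.

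The mean of the Nanog, Oct4 and Sox2 courses was also set directly against the mean of the Esrrb, Tbx3 and Tcl1 courses on days 4 to 6, which does not use the empty vector. Its SE and p-values come from the scatter of daily samples around each curve. The spread between courses of the same set does not enter them. Of the 10 genes 3 were higher (Suz12, Jarid2 and Bmi1) and 3 lower (Phc1, Ezh2 and Cbx7), where 13.8% of all genes were higher and 15.3% lower. The median of the 10 was -0.01, beside 0.03 over all genes. Phc1 differed most, by -1.64 ± 0.09 (adjusted p = 3.06e-18, 3.12-fold lower), and the late means of the Oct4, Sox2 and Nanog courses, 1266, 3344 and 4839, were all below those of the Tcl1, Esrrb and Tbx3 courses, 6959, 7666 and 11037. Suz12 differed by 0.82 ± 0.20 (adjusted p = 0.00141), with late means of 2499.8, 2229 and 1254 under Nanog, Oct4 and Sox2 shRNA, against 802, 1238 and 839.9 under Esrrb, Tbx3 and Tcl1 shRNA. The Sox2 and Tbx3 means lay close together, and the other Suz12 probe sets did not pass (0.37 ± 0.19 and 0.46 ± 0.21). Jarid2 differed by 0.47 ± 0.12 (adjusted p = 0.00174), and 1 of its 2 other probe sets passed. Its courses overlapped. Against the empty vector the late differences of Jarid2 were 0.42, 0.07 and -0.04 under Nanog, Oct4 and Sox2 shRNA. Under Esrrb, Tbx3 and Tcl1 shRNA they were -0.84, -0.33 and 0.22. Bmi1 differed by 0.46 ± 0.13 (adjusted p = 0.00712) and by 0.46 ± 0.16 on its other probe set. Its courses overlapped too. Against the empty vector Bmi1 had 0.93, 0.39 and 0.95 under Nanog, Oct4 and Sox2 shRNA. Under Esrrb, Tbx3 and Tcl1 shRNA it had 0.13, 0.43 and 0.34.

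Ezh2 was lower in the direct comparison, with a difference of -0.47 ± 0.11 (adjusted p = 0.00165). Its late means were 1494, 1299 and 1563 under Nanog, Oct4 and Sox2 shRNA, against 1853, 2275 and 1785 under Esrrb, Tbx3 and Tcl1 shRNA. The course means did not overlap, while single days were not compared between these courses, and non-overlap was not counted over all genes. Cbx7 had -0.35 ± 0.09 (adjusted p = 0.00162), while its A array probe set had 0.35 ± 0.13 (adjusted p = 0.0505), so that the direction rests on the B array probe set. No single sample ended any of these 6 calls. Without day 5 of every course those of Suz12, Ezh2 and Cbx7 were lost, at 0.74 (adjusted p = 0.0819), -0.34 (adjusted p = 0.183) and -0.29 (adjusted p = 0.0779), and without day 6 those of Suz12 and Bmi1, at 0.58 (adjusted p = 0.0589) and 0.37 (adjusted p = 0.0831).

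Within the retinoic acid course days 4 to 6 were compared with days 0 and 1. Bmi1 rose and Phc1, Jarid2, Eed and Cbx7 fell, 1 and 4 of 10, where 17.1% of all genes rose and 13.7% fell. The median of the 10 genes was -0.22, beside 0.12 over all genes. Phc1 averaged 1345 late and 5584 early (-1.88 ± 0.18, adjusted p = 1.3e-11), and Bmi1 1277 late and 452 early (1.58 ± 0.25, adjusted p = 3.23e-06). Jarid2 had 8926, 6157, 6849, 5775, 3483, 3253 and 3179 on days 0 to 6 (-1.19 ± 0.22, adjusted p = 5.07e-05), and all 3 probe sets fell. Against the empty vector the Jarid2 probe sets did not share a direction. The representing one was higher on 7 of 7 days, with a late difference of 0.21 ± 0.20 (adjusted p = 0.425), and 1422697_s_at was higher on 4 of 7 days and lower on 3 of 3 late days, with -0.24 ± 0.16 (adjusted p = 0.228). Neither passed. Eed had 6141, 3052, 2129, 2306, 2351, 2129.5 and 2076 (-0.98 ± 0.21, adjusted p = 0.000301), and Cbx7 fell by 0.54 ± 0.17 (adjusted p = 0.0119). Its A array probe set 1449713_at had -0.02 ± 0.26 (adjusted p = 0.976), and the Cbx7 call was lost with a curve of 2 degrees of freedom, at -0.48 (adjusted p = 0.0576), and without day 4 of every course, at -0.50 (adjusted p = 0.0671). Each of these calls except that of Phc1 depended on the day 0 sample. Without it the changes were 1.17 (adjusted p = 0.13) for Bmi1, -0.68 (adjusted p = 0.394) for Jarid2, -0.67 (adjusted p = 0.364) for Eed and -0.07 (adjusted p = 0.949) for Cbx7. Without retinoic acid day 6 the Jarid2 and Cbx7 calls were also lost, at -1.21 (adjusted p = 0.0549) and -0.48 (adjusted p = 0.408). Ezh2, Suz12, Rnf2 and Ezh1, which differed from the empty vector on late days, were not called within the course. After quantile normalization their changes over time were -0.17 (adjusted p = 0.652), -0.215 (adjusted p = 0.77), 0.49 (adjusted p = 0.216) and -0.45 (adjusted p = 0.0664) in that order.

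Quantile normalization moved the median of all genes by -0.26 in the late comparison of retinoic acid with the empty vector and by -0.18 in the change over time. It took the rising share of the genes called to 39.4%, against 54.1% as deposited, in the late comparison and to 43.5%, against 55.6%, in the change over time. The same 7 and 5 of the 10 genes passed under both scalings, in the same directions. Ezh1 and Cbx7 had -0.83 and -0.78 late after quantile normalization, and Bmi1 and Phc1 2.84 and -2.82.

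Changes in the control cells were tested in the same way. Over the empty vector course limma called 0 of the 10 genes between days 4 to 6 and days 0 and 1, where 0.374% of all genes rose and 0.204% fell, and 4 of the 10 had an unadjusted p under 0.05. The median change of the 10 was -0.51, beside 0.00 over all genes. Ezh2 had -0.55 ± 0.22 (adjusted p = 0.299), Jarid2 -0.76 ± 0.22 (adjusted p = 0.124) and Bmi1 -0.71 ± 0.25 (adjusted p = 0.223), none past the threshold. The Jarid2 probe set 1450710_at fell by its own test (-1.07 ± 0.17, adjusted p = 0.000436). These control changes enter every late difference.

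Day 0 was the highest day for several of the genes in most courses. Eed was highest on day 0 in 8 of 9 courses, a count that 0.885% of all genes reached. Ezh2 and Jarid2 were highest then in 7 of 9 courses, which 2.23% of all genes reached. Eed had 4719.8 on day 0 and 3285 on day 1 under Nanog shRNA, 6141 and 3052 with retinoic acid, and 4934 and 3048 in the empty vector. In all 3 courses the signal on day 1 was well below that of day 0. Rnf2 and Phc1 were highest on day 0 in 4 of 9 courses and Ezh1 in 0. The median of the 10 genes was 3.5 courses, beside 1 over all genes, and 3 of the 10 reached 6 or more courses, beside 4.89% of all genes. These counts are a description noted after the data were seen.

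Among the other subunits of PRC2, 2 of 7 rose and 2 fell with retinoic acid, near the shares of all genes, 26.4% and 22.3%. Epop, a PRC2 partner of embryonic stem cells, had 4604, 1877, 1166, 499.7, 352, 255 and 159 on days 0 to 6 with retinoic acid, against 2169.7, 1686, 2143, 1952, 994, 2200.1, 994 and 819 on days 0 to 7 in the empty vector. Each day of the retinoic acid course was lower than the one before, and the late difference was -2.23 ± 0.24 (adjusted p = 1.25e-10), and no knockdown course changed it past the threshold. Rbbp7, a histone chaperone shared with other complexes, rose with retinoic acid (0.66 ± 0.10, adjusted p = 6.41e-07) and in 6 of 7 knockdown courses, by 0.43 (Oct4) to 0.70 (Nanog). Rbbp4, its paralogue, fell with retinoic acid (-0.43 ± 0.09, adjusted p = 8.7e-05) and under Sox2 shRNA (-0.29 ± 0.09, adjusted p = 0.0151). Medians of the 7 genes were 0.18 with retinoic acid, beside 0.05 over all genes, and from -0.17 to 0.19 in the knockdown courses. The part of the fibroblast and undifferentiated markers in these changes was not tested.

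Phc2, a paralogue of Phc1, rose in the courses in which Phc1 fell, and in others. On days 0 to 7 it had 2475, 3822, 4229, 4747, 5002, 4760.5, 5044 and 4265 under Oct4 shRNA, and on days 0 to 6 623, 1537, 2778, 2966, 3378, 3508 and 3957 with retinoic acid. In the empty vector it had 735, 1086, 1405, 1714, 1314, 1636, 1669 and 1768 on days 0 to 7. The Oct4 course was above the empty vector on every day, and the retinoic acid course on every day but day 0. Phc2 rose in 7 of 7 knockdown courses, by 1.61 ± 0.17 under Oct4 shRNA (adjusted p = 1.16e-09), 1.20 ± 0.17 under Esrrb shRNA, 1.17 ± 0.17 under Sox2 shRNA, 0.98 ± 0.17 under Nanog shRNA, 0.58 ± 0.17 under Tcl1 shRNA, 0.57 ± 0.17 under Mm343880 shRNA and 0.52 ± 0.17 under Tbx3 shRNA (adjusted p = 0.0446), and by 1.16 ± 0.17 with retinoic acid (adjusted p = 1.89e-07). These courses share the empty vector. The rises under Tbx3, Tcl1 and Mm343880 shRNA did not pass in 16 of 32, 11 of 32 and 5 of 31 other settings. Phc2 also changed by 0.76 ± 0.19 (adjusted p = 0.0499) within the empty vector course, a call lost in 17 of 23 settings. In the direct comparison the Nanog, Oct4 and Sox2 courses were higher than the Esrrb, Tbx3 and Tcl1 courses by 0.48 ± 0.10 (adjusted p = 0.000151).

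Of the 7 other chromodomain, polyhomeotic and related genes tested, Phc2 included, 6 rose and 0 fell with retinoic acid. Of all genes 26.4% rose and 22.3% fell there. The median of the 7 was 1.08, beside 0.05 over all genes. Scmh1 rose by 1.27 ± 0.15, Phc3, another polyhomeotic gene, by 1.49 ± 0.27 and Cbx8, a chromodomain gene, by 1.08 ± 0.23 (adjusted p of 1.46e-09, 1.14e-05 and 0.000131). In each knockdown course 1 or 2 of the 7 rose, Phc2 in all of them, where 4.38% (Tcl1) to 10.5% (Sox2) of all genes rose. Under Nanog shRNA 1 of the 7 fell (Cbx6), against 9.04% of all genes. Among 12 PCGF and variant PRC1 subunits 5 rose and 2 fell with retinoic acid, against 26.4% and 22.3% of all genes. Yaf2, which brings Rnf2 into variant complexes, had 448, 1230.1, 2107, 2217, 2584, 2850.5 and 2830.3 on days 0 to 6, against 427, 539.9, 503, 594, 572, 645, 610.2 and 497 on days 0 to 7 in the empty vector, and rose by 2.05 ± 0.18 (adjusted p = 3.03e-13). L3mbtl2 fell by 1.58 ± 0.14 (adjusted p = 4.43e-13), and Pcgf3 rose by 1.83 ± 0.17 (adjusted p = 1.97e-12). Under Nanog, Oct4 and Sox2 shRNA 5, 5 and 5 of the 12 rose and 0, 3 and 2 fell, where 10.4%, 5.71% and 10.5% of all genes rose and 9.04%, 9.39% and 10.7% fell. Under Esrrb, Tcl1, Mm343880 and Tbx3 shRNA 4, 4, 2 and 1 rose and 0, 1, 1 and 0 fell, where 6.50%, 4.38%, 6.86% and 5.13% of all genes rose and 4.46%, 3.33%, 6.39% and 4.72% fell. In the direct comparison 3 of the 12 were higher and 4 lower, against 13.8% and 15.3% of all genes.

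**Figure D4:**
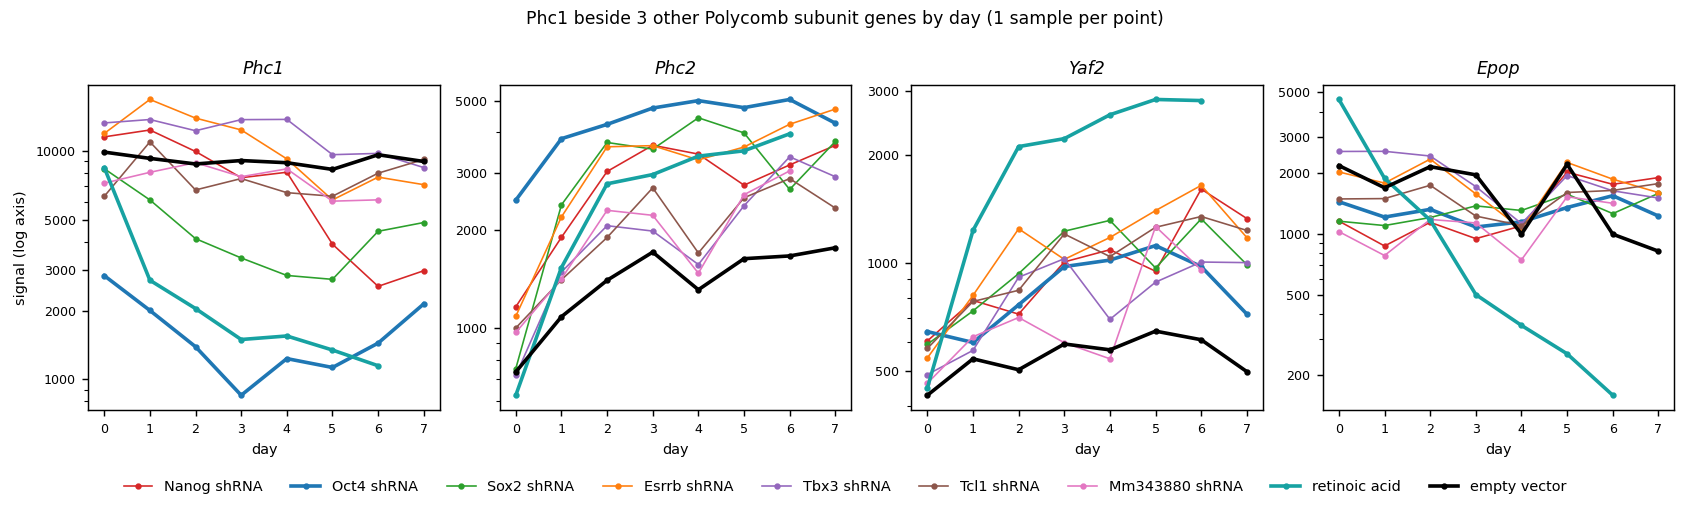
Signal on a log axis (y) by day (x) of Phc1, Phc2, Yaf2 and Epop, 1 line per course and 1 sample per point, with the empty vector in black. Phc2 in the Oct4 course is above the empty vector on every day, and Epop with retinoic acid ends at 159.

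Bcor, the corepressor of a variant PRC1, rose under Nanog (1.55 ± 0.18), Oct4 (1.48 ± 0.18) and Sox2 shRNA (1.45 ± 0.18), and these calls held in 32 of 32 other settings each. Under Esrrb shRNA it rose too (0.63 ± 0.18, adjusted p = 0.0152), and the direct comparison differed by 0.99 ± 0.10 (adjusted p = 1.69e-10). Pcgf5, a PCGF protein, rose in 6 of 7 knockdown courses, all but Tbx3, by 0.87 (Mm343880) to 1.55 (Nanog). A list of 5 genes held enzymes that remove the Polycomb marks and partners of these enzymes. Asxl1, a partner of the deubiquitinase Bap1, fell under Oct4 (-0.99 ± 0.15), Nanog (-0.84 ± 0.15) and Sox2 shRNA (-0.80 ± 0.15). In the direct comparison it differed by -0.70 ± 0.09 (adjusted p = 1.98e-08). With retinoic acid 2 of the 5 rose and 2 fell, against 26.4% and 22.3% of all genes. Among them were Kdm6b, a demethylase (1.22 ± 0.18, adjusted p = 2.12e-07), and Bap1 (-0.57 ± 0.10, adjusted p = 4.41e-06).

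Of 18 genes known as Polycomb targets in mouse embryonic stem cells, 16 were on the arrays, and 12 were tested after the filter on low signal. A gene silent in these cells passes that filter only through samples in which it is high, so the rising counts are not independent of it. With retinoic acid 6 rose and 2 fell, against 26.4% and 22.3% of all genes. Under Nanog, Oct4 and Sox2 shRNA 6, 4 and 3 rose, against 10.4%, 5.71% and 10.5%. There 0, 1 and 1 fell, against 9.04%, 9.39% and 10.7%. Under Esrrb, Tcl1, Mm343880 and Tbx3 shRNA 2, 2, 2 and 1 rose, against 6.50%, 4.38%, 6.86% and 5.13%. In these 1, 0, 0 and 1 fell, against 4.46%, 3.33%, 6.39% and 4.72%. The medians of the 12 genes were 0.80, 0.48, 0.03, 0.06, 0.00, 0.13, 0.15 and -0.23 in that order. With retinoic acid the endoderm regulator Gata6 rose by 3.86 ± 0.18 (adjusted p = 1.74e-21), Gata4 by 1.89 ± 0.20 and the hindbrain gene Hoxa2 by 1.90 ± 0.28. The trophoblast regulators Hand1 and Cdx2 rose under Oct4 shRNA by 2.62 ± 0.22 (adjusted p = 4.99e-12) and 3.54 ± 0.41 (adjusted p = 1.5e-08). Cdkn2a, the locus of cell cycle inhibitors repressed by Bmi1, had 172, 337, 441, 774, 1140.1, 1232 and 1283 on days 0 to 6 with retinoic acid, against 401, 353, 397, 393, 318, 353, 349.8 and 558 on days 0 to 7 in the empty vector, and rose by 1.62 ± 0.16 (adjusted p = 7.7e-12). It rose while Bmi1 rose there, and it also rose in 7 of 7 knockdown courses. In 5 of these Bmi1 was not called, with differences from 0.13 (Esrrb) to 0.51 (Mm343880). A link between Bmi1 and Cdkn2a was not tested. The Mm343880 and Nanog calls of Cdkn2a were lost in 13 of 31 and 10 of 32 settings.

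Across the 70 samples the 10 genes did not follow 1 pattern. Log2 signals were correlated among the 9 genes represented on the A array, which leaves out Cbx7. The highest correlation was r = 0.73 for Bmi1 and Rnf2, followed by 0.69 for Jarid2 and Eed and 0.66 for Ezh2 and Rnf2. The lowest was -0.52 for Bmi1 and Phc1, then -0.40 for Suz12 and Phc1. The genes whose signals were most like each member on the same array design were, for Phc1, Ltbp4 (r = 0.93), Zbtb8a (0.92) and Slc27a2 (0.90). For Bmi1 they were Tgfbr1 (0.91), Edem3 (0.90) and Top2b (0.89), and for Rnf2 Ska2 (0.91), Oxr1 (0.91) and Psmc6 (0.90). For Suz12 they were Matr3 (0.89), Naa15 (0.87) and Usp34 (0.86), for Ezh2 Dhx40 (0.88), Paip2 (0.87) and Nasp (0.87), for Eed Zmym1 (0.88), Brix1 (0.82) and Exosc9 (0.82), and for Jarid2 Brix1 (0.84), Polr2b (0.80) and Ptcd3 (0.79). Ezh1, Ring1 and Cbx7 had no gene with r over 0.63, with Il4i1 (0.62), Extl2 (0.58) and Ankrd27 (0.62) the nearest. All these values share samples, arrays and courses, and are descriptions.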

How the data were processed

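Gene expression was measured on Affymetrix MOE430A and MOE430B arrays, 70 samples on each design, 140 arrays in 9 courses. The deposited intensity values are MAS5 signals on a linear scale that the authors scaled, per the submitters' processing notes. For MAS5 a version number was not given in the sources used here. Each array has a trimmed mean of 2499.99 to 2500.01 over the 100 probe sets that both designs share, so no further scaling was applied. Of 45265 probe sets, 35041 name 1 gene, 936 several, 9160 none and 128 are controls. Probe sets above the table median (283.3 on A, 89.2 on B) on at least 3 arrays were used, 32992 in all, representing 14689 genes. Values were taken as log2(signal + pseudocount), with the 20th percentile of each table (63.1 and 21.8) as pseudocount, which understates the change of dim genes.

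A natural spline of day with 3 degrees of freedom was fitted per course with limma 3.58.1 (lmFit and eBayes with trend) in R 4.3.3, each design separately, and curve averages of days 4 to 6 were contrasted, or set against days 0 and 1 for a change over time. Adjusted p-values are those of Benjamini and Hochberg across the probe sets of both designs together, with a threshold of 0.05. Errors are SE of the fit unless called SD. The fits were tested on simulated data. Samples were grouped by course from their labels, which number the days but no replicates. The members, gene lists and tests were chosen with earlier results of these data known. Named were all 10 genes, from each list up to 4 genes per comparison with the smallest adjusted p among those that passed, and the 3 genes most correlated with each member. Asxl1, Rbbp7, Pcgf5, Phc2 and Cdkn2a were also followed across all courses. Some list genes were not analysed here, nor were the transcript targeted by the Mm343880 hairpin and a Dppa4 course. Alternatives were a pseudocount of 1, no filter, quantile normalization, a spline with 2 degrees of freedom, the day as a replicate block, eBayes without trend, 1 probe set per gene and leaving out each day. Leaving out each sample and the 3 samples farthest from their curves were added after seeing the data.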

Additional observations from a re-analysis of the deposited data

Results flagged for a closer look

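In 14 of 90 sets of daily signals, 1 gene in 1 course each, the highest or lowest day stood apart from all other days by more than Dixon's 95% limit. Chance alone flags about 1 in 20 such sets. Ezh2 was high on day 0 under Nanog shRNA, at 2767 with the next highest day at 1689, under Oct4 shRNA, at 3469.7 with 1783, and in the empty vector, at 3799 with 1880.5. Eed was high on day 0 under Oct4 shRNA, at 3100.4 with the next at 1911, and with retinoic acid, at 6141 with 3052. Jarid2 was high on day 0 in the empty vector, at 6390.1 with 3640 next, as was Cbx7, at 2859 with 2226. Rnf2 was high on day 0 under Nanog shRNA, at 2682 with 1637 next, and in the empty vector, at 2408 with 1423. With retinoic acid Bmi1 was low on day 0, at 216 with 688 next, and Phc1 high, at 8454 with 2714. In these 11 of the 14 sets the day that stood apart was day 0. The other 3 were Suz12 under Esrrb shRNA, low on day 2 at 415 with 638 next, and Ring1, low on day 5 under Tcl1 shRNA at 243 with 317 next and on day 4 under Mm343880 shRNA at 156 with 334. The empty vector day 0 samples of Ezh2, Jarid2, Rnf2 and Cbx7 lie in the control course, and the late differences use its days 4 to 6 through a curve fitted over all days.

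For 6 genes the mean of the Nanog, Oct4 and Sox2 courses differed from that of the Esrrb, Tbx3 and Tcl1 courses by a test of the difference itself on days 4 to 6. That test does not take in the spread between courses of the same set. Phc1 had -1.64, Suz12 0.82, Jarid2 0.47, Bmi1 0.46, Ezh2 -0.47 and Cbx7 -0.35 on the log2 scale. The Cbx7 direction was not shared by its A array probe set, at 0.35. That of Phc1 ran from -1.71 to -1.53 over all settings.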

How the results depend on the processing

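Values of single genes kept their side of the threshold in 2694 of the fits that left out a sample or day, fell below it in 63 and passed it in 13. They did so in 839, 9 and 12 of the other fits. Most of these values were not called as reported, so the counts do not measure how stable the calls were. Only a value called as reported could fall below the threshold. No value that was called as reported or in the other fit changed its sign. The signs of values called in neither were not compared. The number of the 10 genes called changed by over 1.5 times as follows. With the day as a replicate block, which pairs samples by day, it was 1 for Oct4, 0 for Esrrb and 0 for Mm343880 shRNA, against 2, 1 and 2 as reported; in the other late and direct comparisons the replicate block kept the count within 1.5 times, although it lost the Suz12 calls of Nanog shRNA, 1.11 (adjusted p = 0.092), and retinoic acid, 1.02 (adjusted p = 0.0518). Days are not biological pairs, since each course is its own culture. With a spline of 2 degrees of freedom the count was 2 for Esrrb and 1 for Tcl1 shRNA. For Tcl1 it was also 1 after quantile normalization, with 1 probe set per gene and without the 3 samples farthest from their curves (Nanog day 5, Mm343880 day 4 and Sox2 day 6), and for Mm343880 it was 4 without those. Leaving out 1 sample or day at a time gave 2 to 4 for Nanog, 1 to 2 for Oct4, 2 to 3 for Sox2, 0 to 1 for Esrrb, 0 to 0 for Tbx3, 0 to 1 for Tcl1, 0 to 4 for Mm343880 and 2 to 7 for retinoic acid, 1 to 5 for its change over time, 0 to 0 for that of the empty vector and 3 to 6 for the direct comparison. Day 0 of the retinoic acid course decides 4 of its 5 changes over time. The causes were not tested. With 1 sample per course and day, no value has a replicate culture, and signals near the pseudocount, as those of Bmi1 in the empty vector, have little signal over background.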

Other observations

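The genes next to Phc1 on chromosome 6 include Nanog, Dppa3 and Gdf3. Of the 12 genes on each side, 17 of 24 were tested; this set was chosen after seeing the data. Under Oct4 shRNA 0 rose and 6 fell, namely Gdf3 (-1.68 ± 0.17), A2m (-1.58 ± 0.35), Rimklb (-1.46 ± 0.29), Apobec1 (-1.13 ± 0.33), Nanog (-0.67 ± 0.16) and Dppa3 (-0.60 ± 0.19), where 5.71% and 9.39% of all genes rose and fell. With retinoic acid 3 rose and 5 fell, against 26.4% and 22.3% of all genes, with Nanog at -6.01 ± 0.16, Gdf3 at -3.98 ± 0.17, Dppa3 at -2.39 ± 0.19 and Slc2a3 at -2.36 ± 0.13. Under Nanog shRNA 1 rose (Dppa3, 1.48 ± 0.19) and 2 fell (A2m, -1.82 ± 0.35, and Nanog itself, the target), against 10.4% and 9.04%. Under Sox2 shRNA 3 rose and 5 fell, against 10.5% and 10.7%. Where Phc1 was not called, 2 rose and 1 fell under Esrrb shRNA, 0 and 2 under Tbx3 shRNA, 1 and 1 under Tcl1 shRNA and 0 and 2 under Mm343880 shRNA, against 6.50% and 4.46%, 5.13% and 4.72%, 4.38% and 3.33%, and 6.86% and 6.39% of all genes. A2m fell in all 7 knockdown courses and with retinoic acid, with -1.84 ± 0.35 under Esrrb shRNA and -1.39 ± 0.35 under Tbx3 shRNA, and these comparisons share the empty vector. In the direct comparison 1 was higher and 6 were lower, against 13.8% and 15.3% of all genes. Among the 6 was Nanog (-1.15 ± 0.09), which is the target itself in the Nanog course.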
